A study of Homo sapiens with 9 samples.

Results

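The interferon-induced genes followed here are a list of 42 genes, of which 41 could be measured, among 18239 genes on the arrays. They were measured in K562, an established human leukaemia cell line with erythroid features. Each gene was read from 1 probe set, the one annotated with exactly 1 gene symbol that had the highest mean over the 9 arrays. STAT2, the remaining gene of the list, was not analysed here. The cells carried one of 3 forms of calreticulin (CALR), with 3 arrays per group: CALR Del52, CALR Ins5 and wild-type CALR (WT). Del52 and Ins5 are frameshift mutations of the last CALR exon that occur in myeloproliferative neoplasms. All 3 groups were infected with retroviral supernatant in 4 cycles spaced 12 h apart, kept for 36 h in medium with 20% serum, and enriched on beads for the surface marker NGFR, so the WT cells share the virus and the selection with the mutant cells. The NGFR-positive fraction exceeded 90% when it was checked 48 h after selection. The labels do not name the promoter of the construct, and no untransduced cells are among the 9 arrays. Nothing in the labels says that replicates came from separate cultures, so p-values measure only the spread between these samples, which may be technical.

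Interferons are secreted proteins, and those of type I are released by cells that detect viral nucleic acid. Type I interferons bind a receptor that carries the kinases JAK1 and TYK2, and the resulting complex, which contains IRF9, enters the nucleus and binds the interferon-stimulated response element in the promoters of its targets. Interferon gamma uses another receptor and another DNA element, the gamma-activated sequence. The targets block virus entry, degrade viral RNA, sense viral RNA or tag proteins with ISG15, and many of them have a basal level in cells that were given no interferon.

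Values are log2 expression per probe set, and array medians lay between 3.73 and 3.76. Different probe sets bind with different strength, so the level of a gene was set against the same probe set on other arrays and against the controls. Summed levels of marker lists rest mostly on their brightest probe sets and are given only for the same list across arrays. In bulk RNA, fewer cells of a type and less RNA per cell cannot be told apart. Of 11 measured erythroid and K562 markers, 10 lay above the highest background control on every array. In the lists for other cell types, 1 of 6 granulocyte and monocyte markers (LYZ), 0 of 5 lymphoid markers, 2 of 6 fibroblast and epithelial markers (EPCAM and KRT19) and 1 of 4 plasmacytoid dendritic cell markers (TCF4) did so. The probe set for CALR averaged 7.42 ± 0.18 in Del52, 7.40 ± 0.12 in Ins5 and 7.57 ± 0.24 in WT cells (SD, n = 3 each), and does not tell the constructs from the cell's own gene. The probe set for NGFR averaged 3.42 ± 0.07 in Del52, 3.43 ± 0.03 in Ins5 and 3.36 ± 0.05 in WT cells (SD, n = 3 each). It lay below both the highest and the second-highest background control on every array, although the cells had been selected for NGFR. Replicates of WT stood farthest apart. The lowest correlation between any 2 arrays over all tested genes was 0.974, between WT replicates 2 and 3, and the highest was 0.998, between arrays of different groups.

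Promoter sequences were taken from RefSeq (GRCh38.p14), where 32 of the 42 listed genes had an entry running from 250 bases before the transcription start to 50 bases after it. The core of the interferon-stimulated response element, GAAA, any 2 bases and GAAA again, was searched on both strands and was found in 21 of these 32 genes (65.6%), against 4.38% of the 27305 genes with an entry. The gamma-activated sequence, TTCNNNGAA, which reads the same on both strands, was found in 9 of the 32 (28.1%), against 9.38% of all. Matches of both patterns overlapped one another in BST2, IFITM1, IFI27 and MX1. A match describes the letters and is not a site shown to be bound. The stretches below are the 160 bases before the start of 6 members with a match, chosen after their values were seen as examples of both directions along the array order described below, and they are shown on the strand of the gene with the match in capitals. In BST2 (chr19:17405631-17405790, minus strand), IFITM1 (chr11:313880-314039, plus strand) and IFIH1 (chr2:162318685-162318844, minus strand) the capitals mark this core or its reverse complement, and overlapping matches form 1 run.
BST2: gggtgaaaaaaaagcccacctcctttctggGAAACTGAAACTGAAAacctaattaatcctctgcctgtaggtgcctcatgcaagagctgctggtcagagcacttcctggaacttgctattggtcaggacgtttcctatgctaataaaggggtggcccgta
IFITM1: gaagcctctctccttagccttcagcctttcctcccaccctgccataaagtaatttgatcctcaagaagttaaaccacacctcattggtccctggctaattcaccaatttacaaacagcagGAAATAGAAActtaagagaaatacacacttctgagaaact
IFIH1: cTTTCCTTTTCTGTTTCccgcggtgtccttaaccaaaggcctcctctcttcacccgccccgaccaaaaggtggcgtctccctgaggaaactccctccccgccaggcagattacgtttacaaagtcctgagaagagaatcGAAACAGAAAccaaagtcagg

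OAS3 (chr12:112938314-112938473, plus strand) and PLSCR1 (chr3:146544608-146544767, minus strand) hold the same core, while IRF1 (chr5:132490774-132490933, minus strand) holds TTCNNNGAA. These 3 are shown because WT replicates 2 and 3 were their lowest and highest arrays, the reverse of BST2 and IFITM1. CMPK2 had the same lowest and highest arrays, but its entries held no match of either pattern. Counted were members with an entry and a difference of at least 0.5 log2 along the array order described below. The core was found in 6 of 6 upward and 3 of 5 downward ones, and TTCNNNGAA in 2 of 6 and 3 of 5.
OAS3: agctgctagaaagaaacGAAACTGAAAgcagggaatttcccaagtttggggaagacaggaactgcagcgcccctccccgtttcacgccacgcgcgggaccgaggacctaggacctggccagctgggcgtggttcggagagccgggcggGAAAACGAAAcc
PLSCR1: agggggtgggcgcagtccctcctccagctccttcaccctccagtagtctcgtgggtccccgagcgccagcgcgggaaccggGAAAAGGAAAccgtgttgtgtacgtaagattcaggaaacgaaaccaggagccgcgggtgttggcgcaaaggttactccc
IRF1: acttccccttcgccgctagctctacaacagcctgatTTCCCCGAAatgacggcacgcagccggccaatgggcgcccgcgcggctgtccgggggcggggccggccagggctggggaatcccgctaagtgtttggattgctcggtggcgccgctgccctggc

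Most members lay within the range of the background controls. The array carries 23 antigenomic control probe sets, which match no human transcript by design. The highest of them read 6.21 to 6.52 over the 9 arrays, the second-highest 4.09 to 4.29, and their median 1.99 to 2.04. Only 4 of the 41 members, IFITM1, IFITM2, PLSCR1 and BST2, lay above the highest control on every array, which is 9.76%, against 22.0% of all genes. CMPK2 did so on 8 arrays, ISG15 on 6 and OAS3 on 2, and the other 34 on none. Of all 18239 genes, 12666 did so on none. Since 1 control stood far above the rest, the second-highest was used as a further mark, and 15 members (36.6%) lay above it on every array, against 48.5% of all genes. Another 23 members lay above it on no array, beside 8284 of all 18239 genes. These 23 include all 4 measured IFIT genes, all 4 GTPases (MX1, MX2, GBP1 and GBP2) and all 3 cytosolic RNA sensors (RIGI, IFIH1 and DHX58). Above the median control 40 members (97.6%) lay on every array, near the 96.5% of all genes. The exception, IFIH1, lay above the median control on 8.

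**Figure D1:**
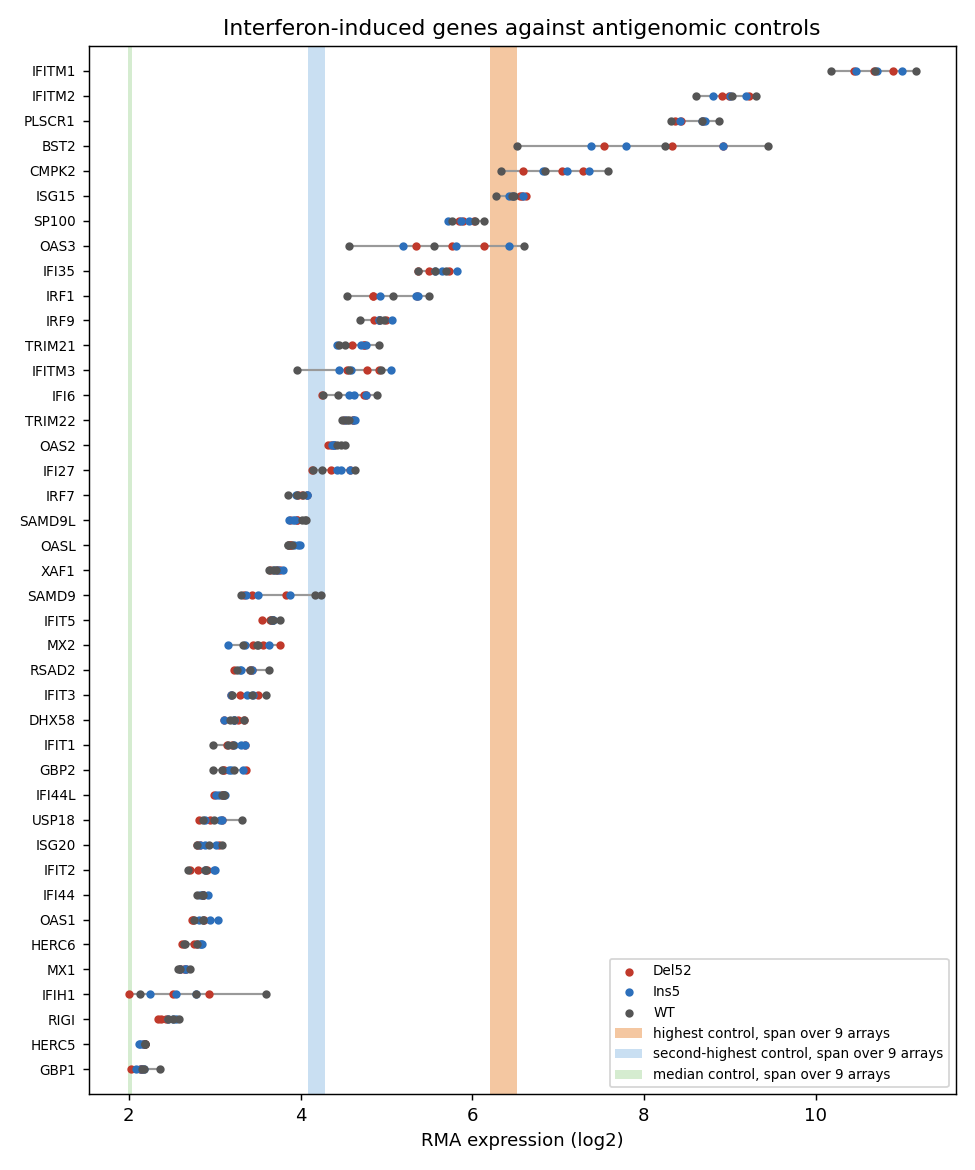
Log2 expression of the 41 interferon-induced genes (rows, ordered by mean) on each array (points, coloured by group), with a grey line from the lowest to the highest array; the bands span the highest, second-highest and median antigenomic control over the 9 arrays. IFITM1, IFITM2, PLSCR1 and BST2 are right of the highest control on every array, and BST2, OAS3 and IFIH1 have the longest lines.

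The clearest variation among the members was between replicates of the same group, and BST2 had the most of it. BST2 encodes tetherin, a membrane protein that holds budding virus particles on the cell surface. It read 8.33, 7.53 and 8.92 in Del52 replicates 1, 2 and 3, 7.79, 7.38 and 8.92 in Ins5 replicates 1, 2 and 3, and 8.24, 9.45 and 6.52 in WT replicates 1, 2 and 3. The 3 groups overlapped throughout, and the highest and the lowest array were both WT. The range of 2.93 corresponds to 7.62-fold, and the within-group SD of BST2, 1.05, exceeded that of 99.8% of all genes. Of its 4 probe sets, 3 had ranges of 2.93, 2.98 and 2.99, and the dimmest had a range of 0.13.

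The arrays were then ordered without the members. The first principal component of the values of all other tested genes, after each group mean was removed, held 81.1% of their within-group variance, and the second held 8.69%. WT replicate 2 lay at its upper end with a score of 0.59, and WT replicate 3 at its lower end with -0.56. Within Del52 and within Ins5, replicate 3 was highest and replicate 2 lowest, with scores of 0.25, 0.08 and -0.33 for Del52 replicates 3, 1 and 2, and of 0.31, -0.05 and -0.26 for Ins5 replicates 3, 1 and 2. Among the genes outside the list, from which the axis was taken, fitted differences between its ends reached 4.61 for TRDN and -4.93 for SRGN. Signal also differed between arrays in the actin control: its 3-prime probe set exceeded its 5-prime one by 1.08 on WT replicate 2, the lowest of the 9, by 1.31 on WT replicate 3 and by up to 1.39 on WT replicate 1. Markers moved along the axis in both directions too. Among erythroid markers the fitted difference was 1.11 for LMO2 and 0.72 for TFRC, but -1.06 for ALAS2 and -0.62 for TAL1. The summed linear level of 5 lymphoid markers spanned 108 to 140 in Del52, 119 to 146 in Ins5 and 99 to 157 in WT cells. Among these CD3D had a fitted difference of 0.99, and the other 4 had 0.01 to 0.19. The sum of 6 fibroblast and epithelial markers spanned 592 to 697 in Del52, 559 to 661 in Ins5 and 503 to 700 in WT cells, with fitted differences of -0.53 for KRT19 and -0.46 for EPCAM. The part of these in the members' values was not tested.

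Members ran along this axis in both directions. Taking the fitted log2 difference between the ends of the axis, 7 members exceeded 0.5 upward (BST2, IFIH1, IFITM1, IFITM3, SAMD9, IFITM2 and IFI6) and 5 downward (OAS3, CMPK2, IRF1, PLSCR1 and IFI27), against 9.75% and 9.91% of all genes. Past 1 log2 there were 4 members (BST2, OAS3, IFIH1 and CMPK2), 9.76%, against 6.03% of all genes. The sizes rested on the WT arrays at the ends: without WT replicate 2 the difference was 1.71 for BST2, -1.11 for OAS3, 0.76 for IFIH1 and -0.71 for CMPK2. Without WT replicate 3 it was 1.5, -1.08, 0.82 and -0.61 for the same genes in this order. The mean of all probe sets of a gene gave 2.21, -0.95, 0.80 and -0.64. The arrays of all 3 groups ran in the same order as the axis in 7 members (BST2, IFITM1, IFITM2, IFITM3, IFIH1, TRIM21 and OAS2), against 9.58% of all genes. They ran in the exact opposite order in 5 (OAS3, CMPK2, IRF1, RSAD2 and MX1), against 9.1%. Together these are 12 of 41 members, against 18.7% of all genes. The median within-group SD was 0.125 over the members and 0.098 over all genes, and the median fitted difference was 0.05 over the members and 0.03 over all genes.

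All 4 genes of entry and membrane restriction ran with the axis. The IFITM proteins are small membrane proteins that hinder the fusion of viruses with cell membranes. IFITM1 read 10.68, 10.45 and 10.90 in Del52 replicates 1 to 3, 10.72, 10.47 and 11.01 in Ins5 replicates 1 to 3, and 10.69, 11.17 and 10.18 in WT replicates 1 to 3. WT replicate 2 was again the highest array and WT replicate 3 the lowest, with a fitted difference along the axis of 0.98, beside 2.91 for BST2. It was 0.54 without WT replicate 2 and 0.53 without WT replicate 3. The axis held 98.4% of the within-group variance of IFITM1 and 97.7% of that of BST2. IFITM2, at 8.61 to 9.30 over the 9 arrays, had a fitted difference of 0.68. IFITM3 read 4.77, 4.54 and 4.91 in Del52, 4.59, 4.45 and 5.05 in Ins5, and 4.56, 4.94 and 3.96 in WT replicates 1 to 3, a fitted difference of 0.97. For IFITM3 the highest array was Ins5 replicate 3, and the lowest WT replicate 3. The names of the IFITM2 and IFITM3 probe sets mark probes that also match other transcripts, so signal of these similar genes may be shared. Such names are also carried by the probe sets used for OAS2, OAS3, OASL, ISG15, USP18, PLSCR1, TRIM21, IFI27, IFI35, IFIT3, GBP1 and GBP2.

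IFIH1, which encodes MDA5, a sensor of long double-stranded RNA, SAMD9, a restriction factor for poxviruses, and IFI6, a membrane protein that restrains cell death, also ran upward. IFIH1 read 2.51, 2.00 and 2.93 in Del52, 2.55, 2.25 and 2.78 in Ins5, and 2.78, 3.60 and 2.13 in WT replicates 1 to 3. Its fitted difference was 1.45, and every array lay under the second-highest control. Its second probe set had a range of only 0.26. SAMD9 read 3.43, 3.34 and 3.83 in Del52, 3.36, 3.51 and 3.88 in Ins5, and 4.24, 4.17 and 3.31 in WT replicates 1 to 3. Here WT replicates 1 and 2 were the highest arrays, and WT replicate 3 was below all arrays of the mutant groups. IFI6 lay at 4.25 to 4.89, with a fitted difference of 0.65.

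OAS3 was the mirror image of BST2. OAS3 makes oligoadenylates, the messengers that switch on the RNA-cleaving enzyme RNase L. It read 5.77, 6.14 and 5.34 in Del52, 5.81, 6.43 and 5.19 in Ins5, and 5.56, 4.56 and 6.60 in WT replicates 1 to 3. WT replicate 3 was now the highest array and WT replicate 2 the lowest, a range of 2.04 or 4.12-fold, and the fitted difference was -2.01. The axis held 96.6% of its within-group variance. Of its other probe sets, one had a fitted difference of -1.0 and one of 0.14. OAS1, OAS2 and OASL, its relatives, had ranges of 0.30, 0.20 and 0.15.

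CMPK2, a mitochondrial nucleotide kinase, had a fitted difference of -1.21. Its values were 7.04, 7.29 and 6.59 in Del52, 7.10, 7.36 and 6.82 in Ins5, and 6.85, 6.34 and 7.58 in WT replicates 1 to 3. WT replicate 3 was the highest array and WT replicate 2 the lowest, and its other probe sets had fitted differences of -0.76 and 0.06. RSAD2 encodes viperin, whose product is a chain terminator for viral polymerases, and it ran in the same order with a fitted difference of -0.35. In RSAD2 a second, dimmer probe set ranged from 2.15 to 3.53 with a fitted difference of -1.33.

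IRF1 is the transcription factor that drives many targets of interferon gamma. It read 4.85, 5.36 and 4.84 in Del52, 5.34, 5.37 and 4.93 in Ins5, and 5.08, 4.54 and 5.50 in WT replicates 1 to 3. Its fitted difference was -0.99, whereas IRF7 and IRF9, the other measured transcription factors, had -0.07 and 0.05. The other IRF1 probe sets had -0.14, -0.62 and 0.06. PLSCR1, a membrane scramblase with antiviral activity, read 8.36, 8.69 and 8.43 in Del52, 8.68, 8.71 and 8.42 in Ins5, and 8.68, 8.31 and 8.87 in WT replicates 1 to 3. All 6 of its probe sets ran downward, with fitted differences of -0.46 to -0.87. IFI27 had a fitted difference of -0.50, and 0.04 in its other probe set.

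**Figure D2:**
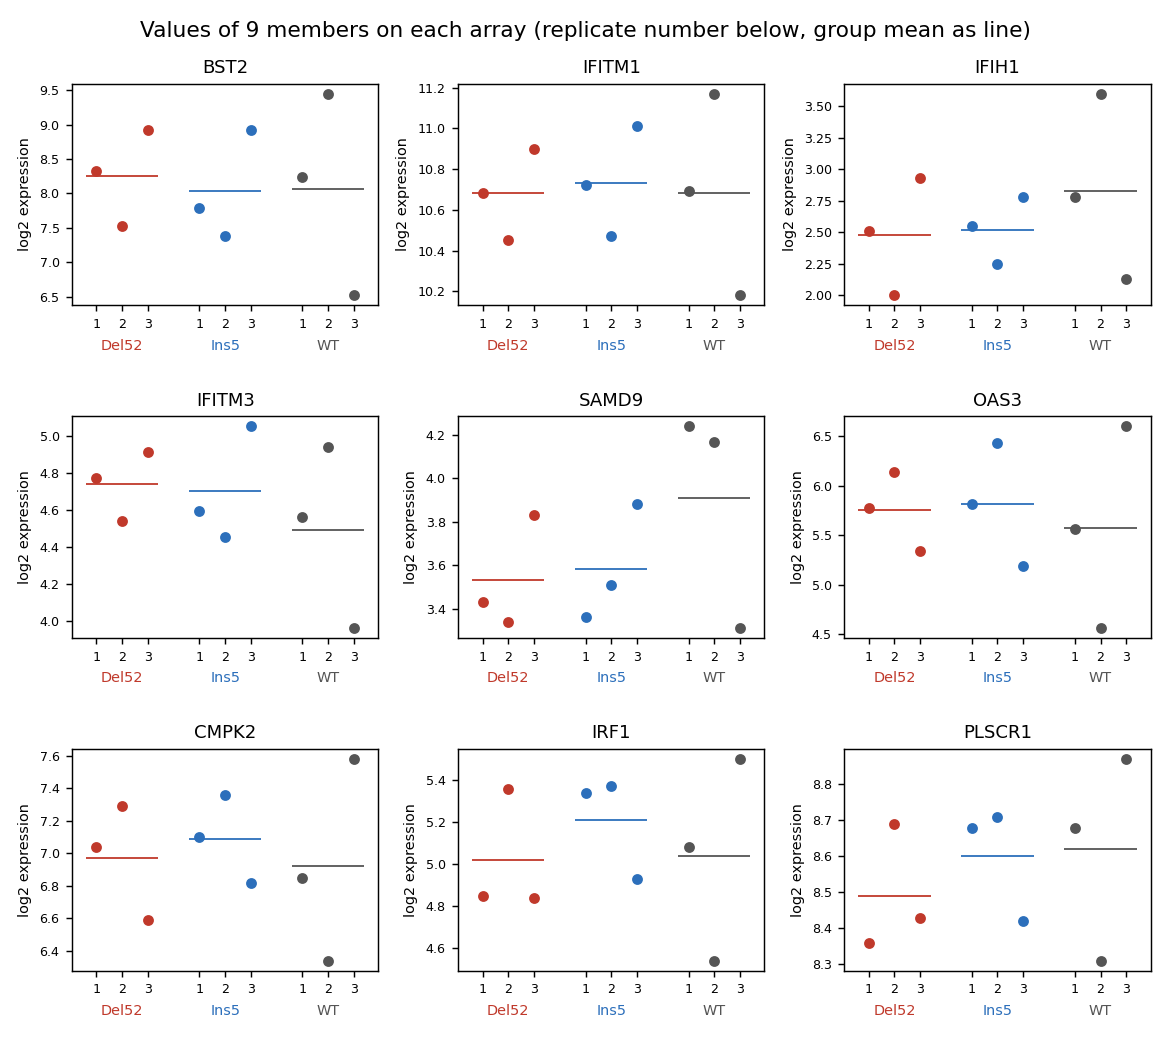
Log2 expression of 9 interferon-induced genes on each array, with Del52, Ins5 and WT from left to right, the replicate number under each point and the group mean as a line; each panel has its own scale, which does not start at 0. WT replicate 2 is the highest and WT replicate 3 the lowest array for BST2 (9.45 and 6.52) and IFITM1, and the order is turned round for OAS3 (4.56 and 6.60), CMPK2, IRF1 and PLSCR1.

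The remaining members had ranges of 0.08 to 0.60 over the 9 arrays. HERC5, which attaches ISG15 to proteins, had a range of 0.08, IFI44 and IFI44L 0.13 each, MX1 0.14 and OASL 0.15. MX1 and its relative MX2 are GTPases that trap viral components, and MX2 had a range of 0.60, with 3.76, 3.45 and 3.56 in Del52, 3.16, 3.63 and 3.35 in Ins5, and 3.49, 3.33 and 3.50 in WT replicates 1 to 3. The axis held only 7.68% of the within-group variance of MX2. The IFIT genes, whose proteins bind foreign RNA ends or translation factors, had ranges of 0.21 to 0.41. In the ISG15 system ISG15 itself, a ubiquitin-like modifier, had a range of 0.35, and USP18, the protease that removes it, 0.49. Of the TRIM and nuclear body genes, TRIM21, an antibody receptor inside the cell, had a range of 0.49, SP100 0.43 and TRIM22 0.16. The number of the 41 members above their group mean was 22, 17 and 24 in Del52, 27, 13 and 24 in Ins5, and 21, 26 and 17 in WT replicates 1 to 3. The highest and the lowest count were thus both in Ins5.

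**Figure D3:**
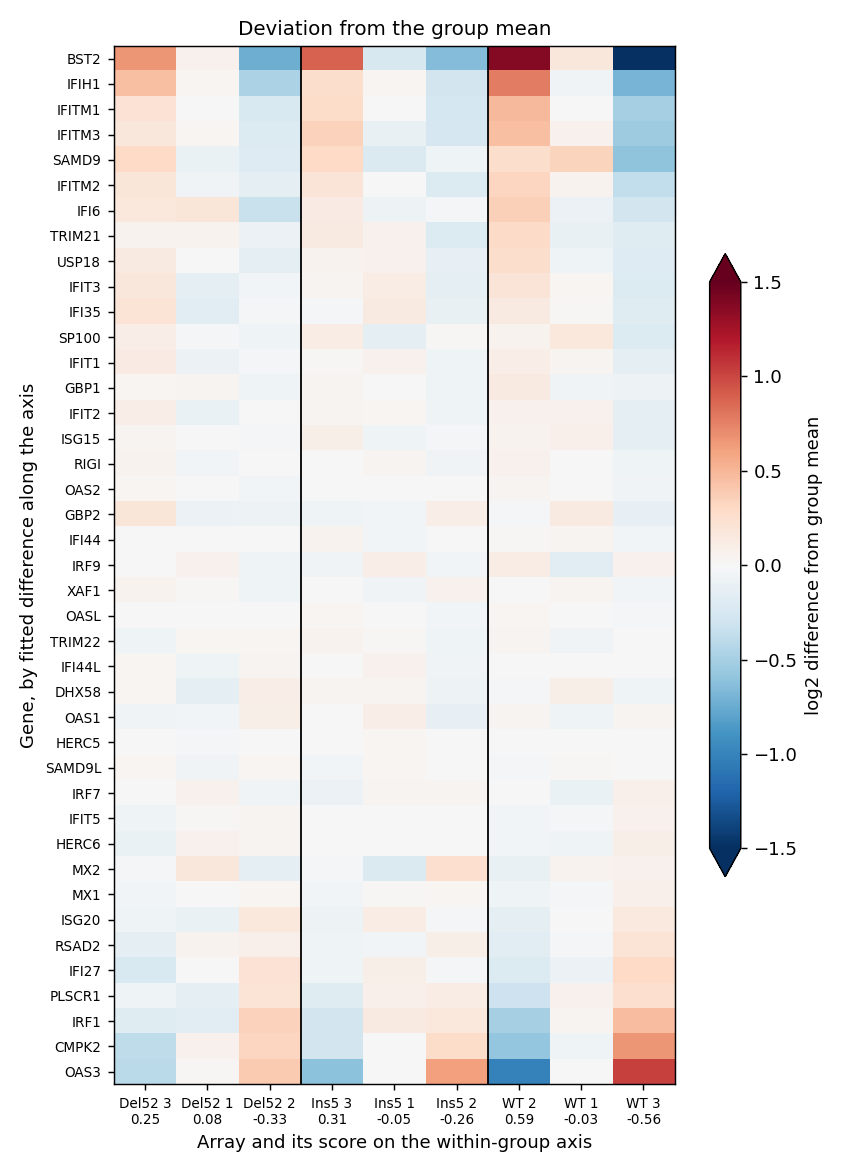
Difference of each array from its group mean (colour, log2, limited to 1.5 either way) for the 41 interferon-induced genes, ordered from top to bottom by the fitted difference along the axis; within Del52, Ins5 and WT the arrays run from the highest to the lowest axis score, printed under each. The strongest colours are in WT replicates 2 and 3, where BST2, IFIH1, IFITM1, IFITM3, SAMD9 and IFITM2 at the top and OAS3, CMPK2, IRF1 and PLSCR1 at the bottom have opposite signs.

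No member passed the test in Del52 compared with WT cells. With limma over all 18239 genes and Benjamini-Hochberg adjustment, 0 genes passed at an adjusted p of 0.05 (0% of all genes), and the smallest adjusted p was 0.633 among the members and 0.603 among all. At an unadjusted p under 0.05 there were 4 members, against 7.05% of all genes. Of these, 1 was higher and 3 were lower in Del52, against 4.1% and 2.95% of all genes. The median log2 difference of the members was -0.01, beside 0.01 for all genes, with 20 members higher and 21 lower, from -0.38 for SAMD9 to 0.25 for IFITM3. The share higher was 48.8%, beside 54.6% of all genes. The groups did not overlap in 5 members, against 10.6% of all genes. ISG15 was higher in Del52 (6.23% of all genes were), and OAS2, RIGI, SAMD9L and GBP1 were lower (4.36% of all genes were).

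OAS2, an oligoadenylate synthetase, read 4.36, 4.32 and 4.39 in Del52 and 4.47, 4.52 and 4.43 in WT replicates 1 to 3. Its log2 difference was -0.12 ± 0.04 (SE; limma adjusted p = 0.633). RIGI, the sensor of RNA with a 5-prime triphosphate, read 2.34, 2.38 and 2.43 in Del52 and 2.52, 2.58 and 2.46 in WT, a difference of -0.14 ± 0.05 (SE; limma adjusted p = 0.644). Every Del52 array lay below every WT array for both genes in these probe sets. The mean of all probe sets gave smaller differences, -0.02 for OAS2 and -0.03 for RIGI. RIGI, SAMD9L and GBP1 lay under the second-highest control on all arrays, as did OASL, HERC6, IFIT1, HERC5, IFIT5, IFIT2 and OAS1 in the comparisons that follow. ISG15 read 6.58, 6.56 and 6.63 in Del52 and 6.49, 6.46 and 6.28 in WT, a difference of 0.18 ± 0.07 (SE; limma adjusted p = 0.655). SAMD9L, a relative of SAMD9 that slows translation, read 3.88, 3.96 and 3.96 in Del52 and 4.06, 4.02 and 4.05 in WT, a difference of -0.11 ± 0.04 (SE; limma adjusted p = 0.655). GBP1, a guanylate-binding GTPase, had a difference of -0.13 ± 0.07. For SAMD9L and GBP1 the mean of all probe sets gave -0.04 each. For BST2 the difference was 0.19 ± 0.75 and for OAS3 0.18 ± 0.52 (SE). Without WT replicate 3 the BST2 difference was -0.59 and without WT replicate 2 it was 0.88, and for OAS3 it was -0.33 without WT replicate 2, so both directions depended on 1 array.

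Ins5 compared with WT cells gave the same absence of calls. In limma 0 genes passed (0% of all genes), and the smallest Benjamini-Hochberg adjusted p was 0.584 among the members and 0.373 among all genes. At an unadjusted p under 0.05 there were 3 members, against 7.41% of all genes. Of these, 2 were higher and 1 was lower in Ins5, against 5.15% and 2.25% of all genes. The median log2 difference was 0.02 for the members and for all genes, with 23 members higher and 18 lower, from -0.32 for SAMD9 to 0.23 for OAS3. The share higher was 56.1%, beside 59.6% of all genes. The groups did not overlap in 6 members, against 11.5% of all genes. IFIT1, OASL and HERC6 were higher in Ins5 (8.16% of all genes were), and OAS2, HERC5 and SAMD9L were lower (3.3% of all genes were).

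SAMD9L read 3.94, 3.91 and 3.87 in Ins5 and 4.06, 4.02 and 4.05 in WT replicates 1 to 3, a difference of -0.13 ± 0.04 (SE; limma adjusted p = 0.584). Both mutant groups lay below the WT arrays for SAMD9L and OAS2 in the probe sets used, but both were compared with the same 3 WT arrays. OASL, an oligoadenylate synthetase-like protein without that enzyme activity, read 3.97, 3.92 and 3.99 in Ins5 and 3.86, 3.90 and 3.85 in WT, a difference of 0.09 ± 0.04 (SE; limma adjusted p = 0.651). HERC6, a relative of HERC5, had a difference of 0.14 ± 0.06 (SE; limma adjusted p = 0.658). IFIT1, which binds RNA with an incompletely methylated cap, read 3.35, 3.23 and 3.31 in Ins5 and 3.15, 3.21 and 2.98 in WT, a difference of 0.18 ± 0.08 (SE; limma adjusted p = 0.675). OAS2 had -0.09 and HERC5 -0.06. BST2 had -0.04, with 0.65 without WT replicate 2 and -0.82 without WT replicate 3, and OAS3 had 0.23, with -0.27 without WT replicate 2.

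Del52 compared directly with Ins5 cells gave 0 genes in limma (0% of all genes), with a smallest Benjamini-Hochberg adjusted p of 0.841 among the members and among all genes. At an unadjusted p under 0.05 there was 1 member, RIGI, against 5.77% of all genes. It was lower in Del52, as were 3.55% of all genes, and 0 members were higher, against 2.22%. More members were lower than higher in Del52, 29 against 12, a share higher of 29.3% beside 45.4% of all genes, with a median log2 difference of -0.04 beside -0.01. The groups did not overlap in 4 members, against 10.1% of all genes. IFIT5, OASL, RIGI and HERC6 were lower in Del52, against 6.28% of all genes, and 0 members were higher, against 3.81%. RIGI read 2.34, 2.38 and 2.43 in Del52 and 2.55, 2.46 and 2.52 in Ins5 replicates 1 to 3, a difference of -0.12 (limma adjusted p = 0.841). With the mean of all its probe sets the RIGI difference was -0.02. HERC6 read 2.79, 2.76 and 2.62 in Del52 and 2.83, 2.84 and 2.85 in Ins5, a difference of -0.12 (limma adjusted p = 0.910). OASL had -0.08 and IFIT5 -0.06, while IFIT2 and OAS1, whose groups overlapped, had -0.15 each.

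An F test over the 3 groups in limma also passed 0 genes (0% of all genes), with 3 members at an unadjusted p under 0.05 (SAMD9L, RIGI and OAS2), against 7.23% of all genes. With limma's default array weights, whose fit did not converge and put a weight of 67 on WT replicate 1, 3190 genes passed in Del52 compared with WT cells, 4017 in Ins5 compared with WT and 0 in Del52 compared with Ins5, among them 6, 12 and 0 members. With weights estimated gene by gene, which lay between 0.384 and 3.56, 0 genes passed in any comparison. Without moderation of the variance 2, 9 and 1 genes passed, with 0 members among them. The covariate tried was the first principal component of all genes, members included and group means kept, so it was not the axis above. With it 4, 7 and 0 genes passed, again with 0 members among them.

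**Figure D4:**
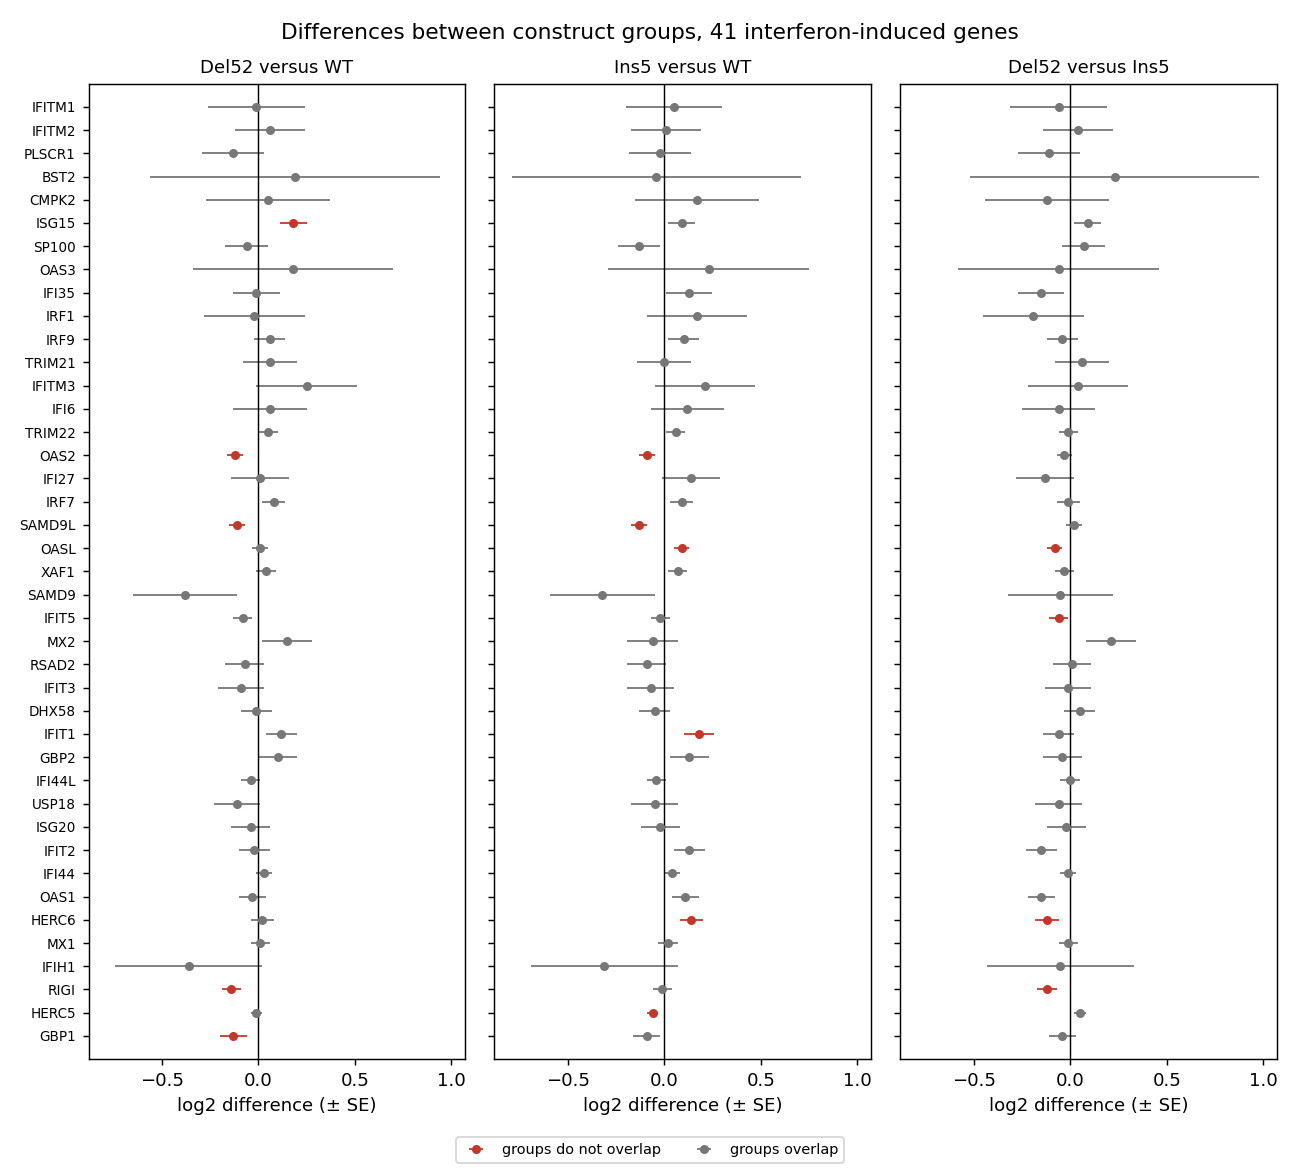
Log2 difference with its standard error for each of the 41 interferon-induced genes (rows, ordered by mean level) in Del52 versus WT, Ins5 versus WT and Del52 versus Ins5; red marks genes whose 3 arrays per group do not overlap. The red points lie within 0.2 of 0, and BST2, OAS3 and IFIH1 have the widest bars.

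The rest of the pathway was read from 57 measured genes outside the list. None of the 7 measured ligands lay above the second-highest control on every array, whereas 8 of the 9 receptor and kinase genes did. Of all genes 48.5% did. In limma 0 of the 57 passed in any comparison, with 4 at an unadjusted p under 0.05 in Del52 compared with WT cells (7.05% of all genes), 4 in Ins5 compared with WT (7.41%) and 5 in Del52 compared with Ins5 (5.77%). In Del52 compared with WT 36 were higher and 21 lower, with a median log2 difference of 0.02 beside 0.01 for all genes. Of all genes 54.6% were higher. In Ins5 compared with WT 43 were higher and 14 lower, with a median of 0.06 beside 0.02, and 59.6% of all genes were higher. In Del52 compared with Ins5 19 were higher and 38 lower, with a median of -0.03 beside -0.01, and 45.4% of all genes were higher. The smallest adjusted p in Del52 compared with WT, 0.603, was shared by IRF2BP2, a corepressor of IRF2 (-0.26), MYD88, an adaptor of Toll-like receptors (0.19), and IFNE, interferon epsilon (0.13). In Ins5 compared with WT, IKBKE, a kinase that activates interferon regulatory factors, had 0.15 (limma adjusted p = 0.521) and TYK2, the receptor-bound kinase, 0.18 (limma adjusted p = 0.612).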

How the data were processed

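The authors deposited log2 expression values per probe set for 9 arrays. Partek and RMA are named in the submitters' processing notes, with no version. RMA subtracts background, puts arrays on 1 distribution and combines the probes of each set. Arrays give no read depth, so their number limits the precision. Of 49386 probe sets, 93 controls were left out, and 45253 had 1 symbol in GEO's platform annotation, 1327 several and 2713 none; 45172 matched a RefSeq gene. Keeping the probe set of highest mean per gene left 18239 genes. One fit in limma 3.58.1 (R 4.3.3) over all arrays, with 6 residual degrees of freedom, gave the 3 contrasts and the F test, two-sided, with Benjamini-Hochberg adjustment over all genes at 0.05. It was tested only on simulated data whose spread was independent between genes, unlike the shared axis seen here. The axis and other summaries used Python 3.11.15, numpy 2.4.6 and pandas 2.3.3. Members, pathway and marker lists were chosen with earlier results of these data known. Genes given with values were those above the controls, the 5 with the smallest p per contrast, the 5 with the largest within-group range and those without overlap; SAMD9, IFI6, RSAD2, PLSCR1, IFI27 and the flat members are described as parts of the array spread, and the promoters printed were chosen after values were seen. Alternatives were other probe set rules, centring, filters, array weights, no moderation, fewer arrays and a replicate block. A last one took the first principal component of all genes, with group means kept, as covariate. Coordinates are GRCh38.p14.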

Additional observations from a re-analysis of the deposited data

How the results depend on the processing

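No member passed at an adjusted p of 0.05 in the 3 contrasts or the F test under any alternative but limma's default array weights, under which 6 members passed in Del52 compared with WT, 12 in Ins5 compared with WT and 13 in the F test, with 3190, 4017 and 5345 genes in all. Without moderation 2, 9 and 1 genes passed in Del52 compared with WT, Ins5 compared with WT and Del52 compared with Ins5, and 6 in the F test. With the first principal component of all genes as covariate, these counts were 4, 7 and 0, and 2 in the F test. The members at an unadjusted p under 0.05 in these contrasts, in the same order, numbered 13, 15 and 6 with default weights (34.4%, 36.6% and 13.9% of all genes). Gene-by-gene weights, which were added after seeing the data, gave 7, 10 and 5 (18.6%, 18.6% and 11.3%). The first principal component as covariate gave 10, 10 and 5 (19.3%, 19.0% and 15.3%). Over genes above the median level, where 17 members were left, there were 1, 0 and 0 (4.23%, 3.61% and 2.7% of the genes left). The last filter gave median differences of 0.05 in Del52 and 0.09 in Ins5 compared with WT, and the filter at the second-highest control, added after seeing the data, gave the same counts (1, 0 and 0) and medians (0.05 and 0.09). Averaging all probe sets of a gene gave 2 members in Del52 and 5 in Ins5 compared with WT (6.8% and 7.66% of all genes). No moderation gave 5 in Ins5 compared with WT and 3 in Del52 compared with Ins5 (8.79% and 7.15% of all genes). The 6 arrays of Del52 and WT alone gave 2 (4.67% of all genes). Median centring gave 0 in Del52 compared with Ins5 (5.91% of all genes). It turned the median in Ins5 compared with WT to -0.02. Leaving out both WT end arrays, added after seeing the data, left 7 members past 0.5 log2 along the axis in either direction, against 12 with all arrays.

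Leaving out 1 array at a time gave 1 to 4, 1 to 5 and 0 to 3 members at an unadjusted p under 0.05 in the 3 contrasts. Without Del52 replicate 1, 1 and 2 members in Del52 and in Ins5 compared with WT stood beside 4.98% and 6.44% of all genes. Medians were -0.02 to 0.01, 0.01 to 0.05 and -0.06 to -0.01. Leaving out 1 array gave 4 to 5 members above the highest control. Past 0.5 log2 along the axis in either direction it gave 6 to 12, with 6 without WT replicate 3. BST2 ran from -0.59 to 0.88 in Del52 and from -0.82 to 0.65 in Ins5 compared with WT, and from -0.10 to 0.67 in Del52 compared with Ins5. OAS3 ran from -0.33 to 0.69, from -0.27 to 0.75 and from -0.37 to 0.25. Fitted differences along the axis kept their sign, at 1.5 to 2.96 for BST2 and -2.13 to -1.08 for OAS3, 0.76 to 1.53 for IFIH1, -1.24 to -0.61 for CMPK2 and 0.53 to 1.01 for IFITM1. With the mark at the 95th percentile of the controls, 15 members lay above it on every array. The second-highest control, added after seeing the data, also gave 15. The median control gave 40 (97.6%), beside 96.5% of all genes. The replicate block gave 0 passing genes, and 0, 0 and 0 members at an unadjusted p under 0.05 (2.12%, 2.12% and 1.33% of all genes). The replicate numbers do not pair the arrays. Same-numbered deviations correlated between -0.92 and 0.64, and 0 arrays correlated best with their own number. The cause of these changes was not tested. Signal over background limits what can be read of the 23 members under the second-highest control.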

Other observations

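Of the 57 measured pathway genes outside the list, 11 ran with the axis in all 3 groups (9.58% of all genes did). Another 5 ran against it (9.1% of all genes did). Together these are 16, beside 18.7% of all genes. Past 0.5 log2 along the axis there were 4 upward (STING1, SOCS3, HLA-C and IFNGR1) and 2 downward (PTPN1 and IRF2), beside 9.75% and 9.91% of all genes. STING1, the adaptor that answers cytosolic DNA, read 5.74, 5.75 and 6.60 in Del52, 6.38, 5.77 and 6.51 in Ins5, and 6.12, 6.73 and 5.14 in WT replicates 1 to 3, with a fitted log2 difference along the axis of 1.5. The highest and the lowest array for STING1 were WT replicates 2 and 3, as for BST2, but Del52 replicates 1 and 2 did not follow the order of the axis. SOCS3, an inhibitor of cytokine signalling, had a fitted difference of 1.49, HLA-C, which presents peptides to T cells, 1.25, and IFNGR1, the ligand-binding chain of the interferon gamma receptor, 0.90. PTPN1, a phosphatase that acts on JAK kinases, and IRF2, which competes with IRF1 for its sites, ran the other way with -0.86 and -0.72. None of these genes passed in limma between construct groups.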
